A study of Mus musculus with 9 samples.

Results

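Akr1b8 encodes an aldo-keto reductase, an enzyme that turns reactive aldehydes and other carbonyls into alcohols with NADPH. It was among the steepest increases in endothelial cells (ECs) of lungs with breast cancer metastases, and it was followed here together with 9 genes of the NRF2 antioxidant pathway. These were Nfe2l2 and Keap1, which encode NRF2 and its inhibitor, the targets Nqo1, Hmox1, Gclm, Gclc, Srxn1 and Txnrd1, and Akr1b3, the aldose reductase gene. The members were the probe sets that the platform annotation assigns to 1 of these 10 genes alone. There were 18 such probe sets for 9 genes, out of 34945 probe sets and 18193 genes measured in this way. No probe set named Akr1b3 alone, and it was not analysed here. Akr1b8 was chosen by its measured log2 differences between metastatic and healthy lungs, so these are described without a test, whereas the other members were named for their pathway.

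NRF2 is a transcription factor that KEAP1 holds in the cytoplasm and marks for degradation. Oxidants and electrophiles modify KEAP1, and NRF2 then enters the nucleus, pairs with small MAF proteins and binds antioxidant response elements near genes for glutathione synthesis, thioredoxin reduction, NADPH supply and detoxification. In ECs the pathway is known for its response to laminar flow and to oxidative stress. Because NRF2 is controlled largely through its protein, the mRNA of Nfe2l2 does not by itself measure its activity.

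The ECs came from whole lungs of NSG mice, an immunodeficient strain without mature lymphocytes or NK cells, and were sorted for CD31 after exclusion of cells with hematopoietic, epithelial, fibroblast and cancer cell markers. Mice of 6 to 8 weeks were injected through the tail vein with MDA-LM2, a lung-colonizing derivative of the human breast cancer line MDA-MB-231, and their lungs were taken on day 21. The metastasis anti-VEGF group received the VEGFA antibody B20.4.1.1 at 10 mg per kg in repeated doses, the metastasis IgG group received control IgG, and the healthy IgG group was made up of age-matched mice without cancer cells that received control IgG. Each group had 3 arrays from biological replicates, and metastatic mice of comparable tumor load had been selected. The cells of a metastatic lung include ECs outside the nodules, and in such bulk samples fewer cells of a type and less RNA per cell cannot be told apart.

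The values are log2 intensities, in which a difference of 1 is a doubling. No array stood apart: correlations over genes were at least 0.991 within a group and at least 0.977 between groups. The mean of 14 endothelial markers, with Pecam1, Cdh5 and Kdr among them, was between 12.8 and 12.9 in every array, against an array median of 8.31. Of these markers, Emcn was called higher in metastasis anti-VEGF (0.50, limma, adjusted p = 0.0167) and in metastasis IgG (0.43, adjusted p = 0.0393), and Eng lower in metastasis anti-VEGF (-0.38, adjusted p = 0.0348), each against healthy IgG. With 1 array left out, Emcn kept its call in 3 of 6 fits for anti-VEGF and 1 of 6 for IgG, and Eng in 1 of 6. The mean of 21 macrophage and monocyte markers was 8.998 to 9.27 in metastasis anti-VEGF, 8.97 to 9.08 in metastasis IgG and 8.10 to 8.37 in healthy IgG arrays. A gene was called where its adjusted p in limma, with Benjamini-Hochberg adjustment over 18193 genes, was under 0.05. By this rule 9.01% of genes were called between metastasis IgG and healthy IgG and 6.44% between metastasis anti-VEGF and healthy IgG. Of 18193 genes, 0 were called by limma between metastasis anti-VEGF and metastasis IgG, where 1462 had an unadjusted p under 0.05.

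To place the genes in the genome, RefSeq promoter windows of GRCm38.p6 from 250 bases before to 50 bases after the start were searched on both strands. The motifs were the antioxidant response element core TGACNNNGC and the AP-1 site TGACTCA, which overlaps the longer form of that element. A window was found for 7 of the 10 members. The core was present in 12.4% of 32851 windows, the AP-1 site in 5.20%, and a pair of overlapping matches in 0.454%. Akr1b8, the member with the large difference, is shown beside Srxn1 and Gclm, both known NRF2 targets, with matches in capitals.
Akr1b8 chr6:34353896-34354195 (+ strand): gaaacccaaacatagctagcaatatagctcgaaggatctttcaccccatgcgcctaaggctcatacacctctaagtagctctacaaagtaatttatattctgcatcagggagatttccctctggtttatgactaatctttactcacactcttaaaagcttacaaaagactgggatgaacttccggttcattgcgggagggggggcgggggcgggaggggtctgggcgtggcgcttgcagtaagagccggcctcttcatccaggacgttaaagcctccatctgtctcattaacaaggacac
Srxn1 chr2:152105274-152105573 (+ strand): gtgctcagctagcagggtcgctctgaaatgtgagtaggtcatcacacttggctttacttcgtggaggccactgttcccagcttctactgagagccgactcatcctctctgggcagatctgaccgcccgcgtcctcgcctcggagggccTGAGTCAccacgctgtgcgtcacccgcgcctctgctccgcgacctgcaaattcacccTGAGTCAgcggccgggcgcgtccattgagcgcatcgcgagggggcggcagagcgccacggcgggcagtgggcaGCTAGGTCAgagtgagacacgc
Gclm chr3:122245307-122245606 (+ strand): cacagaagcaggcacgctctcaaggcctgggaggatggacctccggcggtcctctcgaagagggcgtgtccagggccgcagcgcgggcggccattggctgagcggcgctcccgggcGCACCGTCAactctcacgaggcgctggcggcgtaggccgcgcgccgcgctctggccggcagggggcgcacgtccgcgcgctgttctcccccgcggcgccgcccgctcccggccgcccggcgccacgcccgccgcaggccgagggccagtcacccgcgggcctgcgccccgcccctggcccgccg

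The Akr1b8 window held neither motif. Srxn1 held 2 AP-1 sites, first bases at positions -102 and -45 from the start, and 1 core at position 29, whereas Gclm held 1 core at position -134, each read on the opposite strand. Among the other members, Nfe2l2 had 1 core at position -240 and Txnrd1 had 1 at position -92 in 1 of its 3 windows. The windows of Nqo1 and Keap1 held neither motif, and so did those of Akr1b10 and Akr1b7, the paralogs that lie beside Akr1b8. A match describes letters in these windows only, and elements farther away were not searched.

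Akr1b8 mRNA was low in ECs of healthy lungs and high in ECs of metastatic lungs with either antibody. Its probe set 1448894_at read 9.79, 10.24 and 10.03 in metastasis anti-VEGF, 10.37, 10.55 and 10.05 in metastasis IgG, and 7.67, 7.40 and 7.42 in healthy IgG arrays. The lowest metastatic array lay more than 2 log2 units above the highest healthy one, and both metastatic groups overlapped each other. The means were 10.02 ± 0.23 in metastasis anti-VEGF, 10.33 ± 0.25 in metastasis IgG and 7.49 ± 0.15 in healthy IgG arrays (SD, n = 3 each). The difference between metastasis IgG and healthy IgG was 2.83, or 7.12-fold, which placed Akr1b8 6th from the highest of 18193 genes, between Clca3a1 at 2.92 and Cenpf at 2.72. The difference between metastasis anti-VEGF and healthy IgG was 2.53, or 5.76-fold, and placed it 9th. Both are values by which the gene was chosen and are given as description.

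Anti-VEGF treatment was compared with IgG in metastatic lungs. The metastatic arrays are among those by which Akr1b8 was chosen, so this difference too is given as description, without a test. It was -0.31 ± 0.15 log2 units (SE, 3 arrays against 3), and the groups overlapped. The array of metastasis anti-VEGF replicate 1, at 9.79, was the lowest of the 6, and without it the difference was -0.19.

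**Figure D1:**
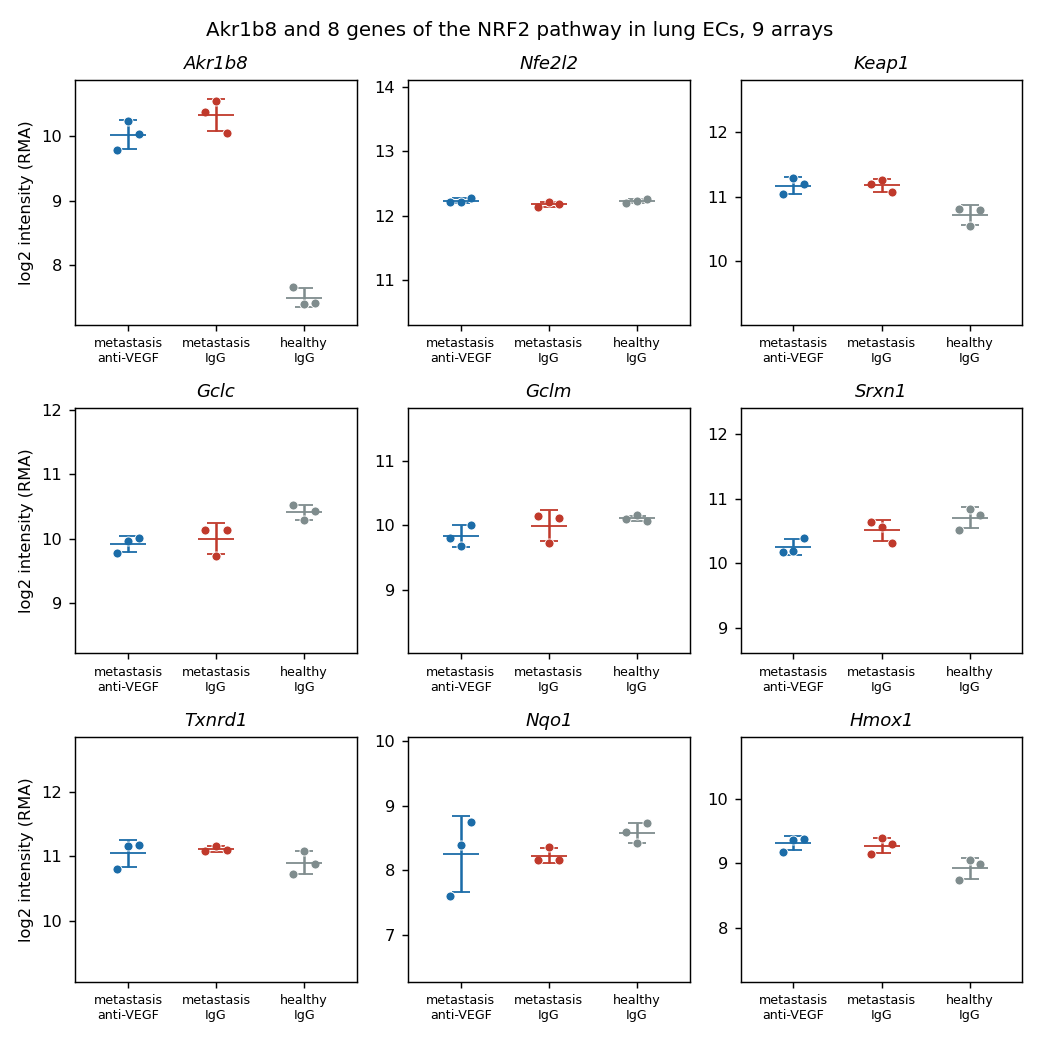
Log2 intensity of Akr1b8 and 8 NRF2 pathway genes in each of 9 arrays, by group from left to right metastasis anti-VEGF, metastasis IgG and healthy IgG. Points are arrays, horizontal lines are means and bars are SD over 3 arrays, and each vertical axis spans the same number of log2 units: Akr1b8 averaged 10.02 in metastasis anti-VEGF, 10.33 in metastasis IgG and 7.49 in healthy IgG, while the other 8 genes differed by less than 0.5 in any comparison.

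Nfe2l2, the gene of NRF2 itself, was abundant and even across the groups. Its brighter probe set 1416543_at read 12.21, 12.20 and 12.27 in metastasis anti-VEGF, 12.14, 12.21 and 12.18 in metastasis IgG, and 12.19, 12.23 and 12.26 in healthy IgG arrays. Its arrays overlapped in each comparison, and metastasis IgG differed from healthy IgG by -0.04 ± 0.07 (limma, adjusted p = 0.779), with a 95% interval from -0.21 to 0.12. The dimmer probe set 1457117_at went lower instead, with 8.88, 8.70 and 8.80 in metastasis anti-VEGF, 8.63, 8.38 and 8.69 in metastasis IgG, and 9.03, 9.04 and 8.97 in healthy IgG arrays. Every metastatic array lay below every healthy one at this probe set. In the fit of 34945 probe sets, of which 7.41% were called for IgG and 5.41% for anti-VEGF against healthy IgG, it fell by 0.44 ± 0.10 in metastasis IgG against healthy IgG (limma, adjusted p = 0.0342), whereas metastasis anti-VEGF differed from healthy IgG by -0.22 ± 0.09 (adjusted p = 0.194). The probe sets of this gene therefore disagreed in call. At 1457117_at, anti-VEGF against IgG in metastatic lungs gave 0.22 ± 0.11 without overlap of the arrays and without a call (limma, adjusted p = 0.691).

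Keap1, the inhibitor of NRF2, was the 1 tested member called higher in both metastatic groups. Its probe set 1450746_at read 11.03, 11.28 and 11.20 in metastasis anti-VEGF, 11.19, 11.26 and 11.07 in metastasis IgG, and 10.81, 10.54 and 10.79 in healthy IgG arrays. The metastatic arrays did not overlap the healthy ones. Keap1 rose by 0.46 ± 0.10 in metastasis IgG (limma, adjusted p = 0.0277) and by 0.46 ± 0.11 in metastasis anti-VEGF (adjusted p = 0.0406), each against healthy IgG. Its other probe set, 1450747_at, differed by 0.16 in each comparison and was not called (adjusted p = 0.595 for IgG and 0.521 for anti-VEGF). With 1 array left out the call held in 2 of 6 fits for IgG and 1 of 6 for anti-VEGF.

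The 2 subunits of glutamate-cysteine ligase, the enzyme that limits glutathione synthesis, were both lower on average in metastatic lungs. Gclc, the catalytic subunit, read 9.77, 9.97 and 10.02 in metastasis anti-VEGF, 10.14, 9.73 and 10.14 in metastasis IgG, and 10.52, 10.29 and 10.42 in healthy IgG arrays at 1424296_at. Neither metastatic group overlapped the healthy one. Gclc fell by 0.49 ± 0.10 in metastasis anti-VEGF against healthy IgG (limma, adjusted p = 0.0236), whereas the difference of metastasis IgG from healthy IgG, -0.41 ± 0.13, did not pass (adjusted p = 0.0923). The call with anti-VEGF held in 2 of 6 fits with 1 array left out. The second probe set, 1455959_s_at, differed by -0.23 in each comparison and was not called. At 1424296_at, anti-VEGF against IgG in metastatic lungs gave -0.08 ± 0.13 (limma, adjusted p = 0.917), and the arrays overlapped.

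Gclm, the modifier subunit, read 9.80, 9.68 and 10.01 in metastasis anti-VEGF, 10.15, 9.72 and 10.12 in metastasis IgG, and 10.10, 10.15 and 10.07 in healthy IgG arrays at 1418627_at. The anti-VEGF arrays lay below the healthy ones, while those of metastasis IgG overlapped them. The differences from healthy IgG were -0.28 ± 0.10 for metastasis anti-VEGF (limma, adjusted p = 0.150) and -0.11 ± 0.12 for metastasis IgG (adjusted p = 0.642). Its other probe set, 1439050_at, gave -0.21 for metastasis anti-VEGF and -0.25 for metastasis IgG, without a call.

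Srxn1 and Txnrd1 restore oxidized peroxiredoxins and thioredoxin. Srxn1, the sulfiredoxin gene whose window held the most matches above, read 10.17, 10.20 and 10.40 in metastasis anti-VEGF, 10.64, 10.57 and 10.32 in metastasis IgG, and 10.53, 10.84 and 10.75 in healthy IgG arrays at 1419942_at. The anti-VEGF arrays lay below the healthy ones, and the IgG arrays overlapped both groups. Srxn1 fell by 0.45 ± 0.11 in metastasis anti-VEGF against healthy IgG (limma, adjusted p = 0.0470). This call held in 1 of 6 fits with 1 array left out and was not made at the same probe set in the fit of 34945 probe sets (adjusted p = 0.0543). The 3 other probe sets of Srxn1 differed by -0.48 to -0.13 in this comparison, none of them called. Against IgG in metastatic lungs, anti-VEGF differed by -0.26 ± 0.11 (adjusted p = 0.621), and the arrays overlapped.

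Txnrd1, the cytosolic thioredoxin reductase gene, read 10.80, 11.16 and 11.18 in metastasis anti-VEGF, 11.08, 11.17 and 11.11 in metastasis IgG, and 10.74, 11.09 and 10.88 in healthy IgG arrays at 1421529_a_at. The groups overlapped. Metastasis IgG differed from healthy IgG by 0.22 ± 0.10 (limma, adjusted p = 0.251) and metastasis anti-VEGF by 0.15 (adjusted p = 0.591), and the dimmer probe sets 1424487_x_at and 1424486_a_at gave -0.06 and 0.12 in the IgG comparison.

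Nqo1 and Hmox1, the classical readouts of NRF2, differed from healthy lungs in opposite directions, neither with a call. Nqo1, a quinone reductase, read 7.60, 8.40 and 8.75 in metastasis anti-VEGF, 8.17, 8.37 and 8.15 in metastasis IgG, and 8.59, 8.42 and 8.73 in healthy IgG arrays. The IgG arrays lay below the healthy ones, whereas the anti-VEGF arrays were spread over 1 log2 unit and overlapped both other groups. The difference of metastasis IgG from healthy IgG was -0.35 ± 0.11 (limma, adjusted p = 0.0822), and that of metastasis anti-VEGF was -0.33 ± 0.25 (adjusted p = 0.516), or -0.0095 without its replicate 1. Neither was called, and the 95% interval for IgG, from -0.60 to -0.11, lay below 0 before adjustment for multiple tests.

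Hmox1, the inducible heme oxygenase gene, read 9.18, 9.36 and 9.37 in metastasis anti-VEGF, 9.14, 9.38 and 9.30 in metastasis IgG, and 8.74, 9.05 and 8.98 in healthy IgG arrays. Every metastatic array lay above every healthy one. The differences from healthy IgG were 0.38 ± 0.11 for metastasis anti-VEGF (limma, adjusted p = 0.0746) and 0.35 ± 0.11 for metastasis IgG (adjusted p = 0.0897), neither of them called. Their 95% intervals, 0.14 to 0.62 for anti-VEGF and 0.10 to 0.60 for IgG, lay above 0 before adjustment for multiple tests. Macrophages are known for a high level of this gene, and of the 21 macrophage and monocyte markers 11 were called higher in metastasis anti-VEGF and 12 in metastasis IgG, with none lower. Beside them, 4.15% and 5.55% of all genes were called higher. Among the markers C1qa averaged 9.95, 9.96 and 7.32 in metastasis anti-VEGF, metastasis IgG and healthy IgG. Ptprc, the gene of the CD45 used for exclusion, averaged 9.40, 9.29 and 8.77. It was not called against healthy IgG for anti-VEGF (limma, adjusted p = 0.132) or for IgG (adjusted p = 0.187). The part of these cells in the values of Hmox1 was not tested.

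**Figure D2:**
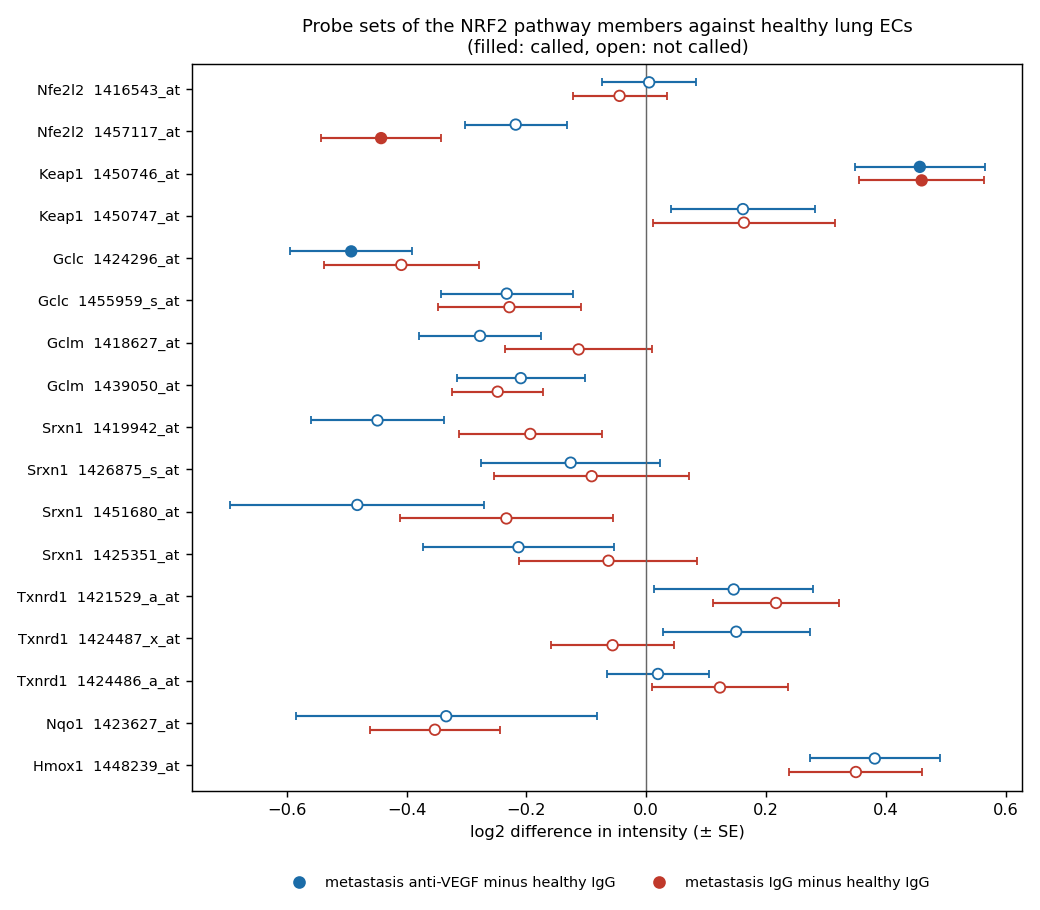
Log2 difference from healthy IgG (± SE, 3 arrays against 3) for the 17 probe sets of the 8 NRF2 pathway genes, with metastasis anti-VEGF above metastasis IgG in each pair and filled points for probe sets called in the fit of 34945 probe sets. Keap1 1450746_at stood at 0.46 in both comparisons, Gclc 1424296_at at -0.49 under anti-VEGF and Nfe2l2 1457117_at at -0.44 under IgG, and the other 14 probe sets were not called in either.

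Across the 8 measured members besides Akr1b8, metastasis IgG against healthy IgG had 1 called higher, Keap1, and 0 called lower in limma, beside 5.55% of genes called higher and 3.46% called lower. Metastasis anti-VEGF against healthy IgG had 1 higher, Keap1, and 2 lower, Gclc and Srxn1, beside 4.15% and 2.29% of genes. The median differences of the 8 genes were -0.08 for IgG and -0.14 for anti-VEGF, each beside a median of all genes within 0.01 of 0. Arrays did not overlap for 4 of the 8 genes with IgG and 5 of the 8 with anti-VEGF, against 29.1% and 26.9% of genes. Since these comparisons share the healthy arrays, they are not independent of each other. Between metastasis anti-VEGF and metastasis IgG, 0 of the 8 were called by limma, their median was -0.04, and only Srxn1 had an unadjusted p under 0.05. The arrays of these groups overlapped for all 8, while they did not for 13.1% of all genes.

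Other genes placed under NRF2 control in the mouse, with a list of regulators of the pathway, were taken as 6 lists by role, of which 43 of 49 genes were measured. They are called further NRF2 targets here, although 9 of them, such as Cul3 and Bach1, were listed as regulators. Metastasis IgG against healthy IgG had 1 called higher and 5 lower, with a median of -0.03, and metastasis anti-VEGF had 1 higher and 4 lower, with a median of -0.07. Over all genes, 5.55% were called higher and 3.46% lower for IgG, and 4.15% and 2.29% for anti-VEGF. No call was made between the antibodies (limma, lowest adjusted p = 0.58, median -0.02). The called genes belonged to conjugation, export and xenobiotic metabolism.

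The single increase was Abcc4, which encodes a transporter that exports conjugates and cyclic nucleotides. It read 9.17, 9.66 and 9.74 in metastasis anti-VEGF, 9.92, 10.04 and 9.53 in metastasis IgG, and 8.79, 8.81 and 8.90 in healthy IgG arrays, with no overlap between metastatic and healthy lungs. Abcc4 rose by 1.00 ± 0.13 with IgG (limma, adjusted p = 0.00275) and by 0.69 ± 0.14 with anti-VEGF (adjusted p = 0.0272). The call for IgG held in 6 of 6 fits with 1 array left out, and that for anti-VEGF in 1 of 6.

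Of the glutathione S-transferases, which couple glutathione to electrophiles, 3 fell. Gstm1 read 12.03, 11.84 and 11.81 in metastasis anti-VEGF, 11.94, 11.79 and 11.94 in metastasis IgG, and 12.42, 12.38 and 12.47 in healthy IgG arrays, so that the healthy arrays were the highest. It fell by 0.53 ± 0.08 with IgG (limma, adjusted p = 0.00581) and by 0.53 ± 0.09 with anti-VEGF (adjusted p = 0.0100). Its probe set may also bind mRNA of close relatives, and of its 3 other probe sets 1448330_at gave -0.52 with IgG, 1425627_x_at -0.11 and 1425626_at -0.0042. Gstp1 fell by 0.46 ± 0.08 with IgG (adjusted p = 0.00877) and by 0.49 ± 0.07 with anti-VEGF (adjusted p = 0.00717). Gsta3 fell by 0.69 in each comparison (adjusted p = 0.0350 for IgG and 0.0334 for anti-VEGF), each call held in 2 of 6 fits with 1 array left out, and its second probe set gave 0.23 for IgG without a call.

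Ephx1, the microsomal epoxide hydrolase gene, read 11.54, 11.45 and 11.47 in metastasis anti-VEGF, 11.56, 11.30 and 11.58 in metastasis IgG, and 12.08, 12.09 and 12.11 in healthy IgG arrays. The healthy arrays lay above the metastatic ones without overlap, and Ephx1 fell by 0.61 in each comparison (limma, adjusted p = 0.00650 for IgG and 0.00254 for anti-VEGF). Aox1, an aldehyde oxidase gene, fell by 0.52 ± 0.11 with IgG (adjusted p = 0.0230), held in 3 of 6 fits with 1 array left out, and differed by -0.45 with anti-VEGF without a call (adjusted p = 0.0841). For Aox1, anti-VEGF against IgG gave 0.07 ± 0.12 (limma, adjusted p = 0.926).

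The lists of thioredoxin and peroxiredoxin (2 genes measured), NADPH supply (5 genes), heme and iron (3 genes) and regulators of the pathway (9 genes) held no called gene in any comparison. Of all genes, 9.01% were called for IgG and 6.44% for anti-VEGF against healthy IgG, and 0 between the antibodies. At these shares lists of this size would hold few calls. Sesn2, a sestrin gene of the first list, differed by -0.09 with IgG (limma, adjusted p = 0.631) and by 0.09 with anti-VEGF (adjusted p = 0.665), each against healthy IgG. Of the others, Pgd, an enzyme of the pentose phosphate pathway, differed by 0.19 with IgG against healthy IgG (limma, adjusted p = 0.236) and Blvra, a biliverdin reductase gene, by 0.29 with anti-VEGF (adjusted p = 0.113). Osgin1, a stress-induced NRF2 target, differed by -0.41 between metastasis anti-VEGF and metastasis IgG (adjusted p = 0.580), the largest difference of the 43 genes in that comparison.

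**Figure D3:**
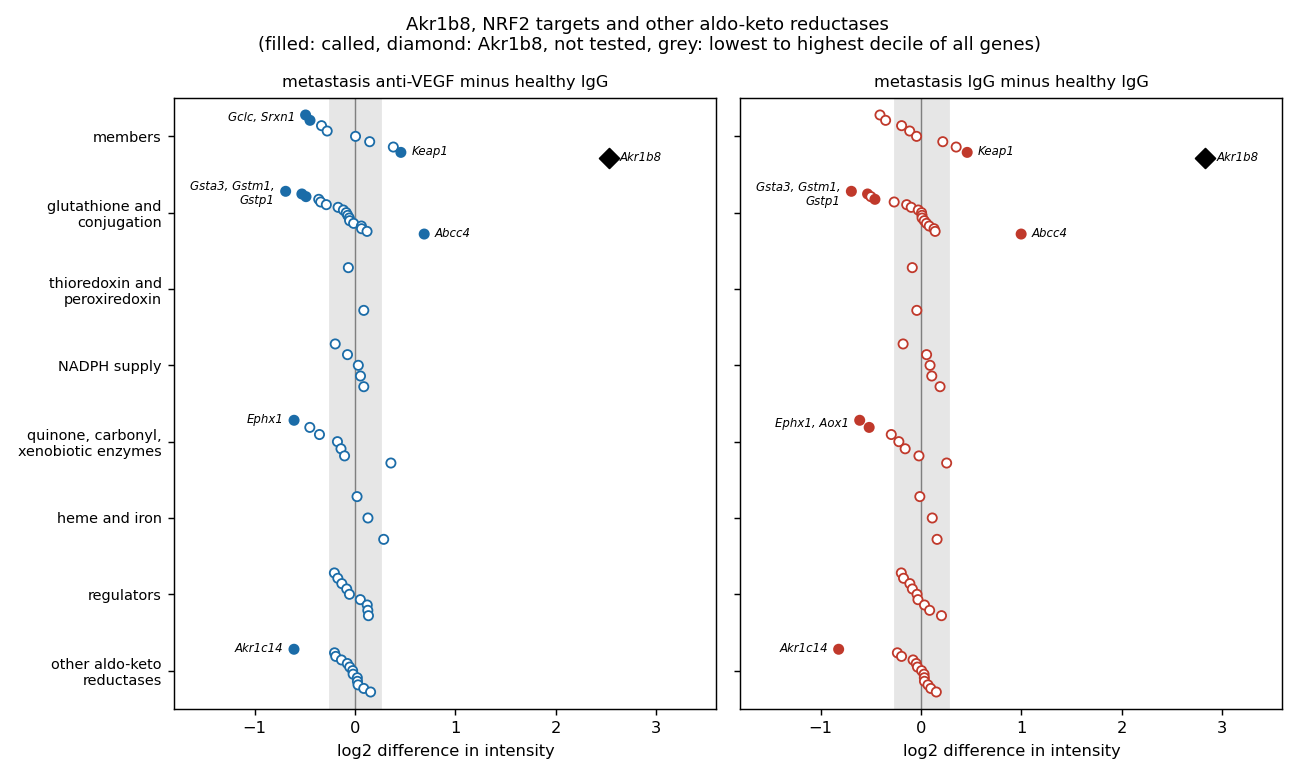
Log2 difference from healthy IgG for the members, the 6 lists of further NRF2 targets and other aldo-keto reductases, metastasis anti-VEGF in the left panel and metastasis IgG in the right. Filled points were called in limma, open points were not, the diamond is Akr1b8, which was not tested, and the grey band runs from the lowest to the highest decile of all genes (-0.25 to 0.26 for anti-VEGF and -0.26 to 0.28 for IgG), with Abcc4 at 0.69 and 1.00 as the only further target called higher.

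Other members of the enzyme family of Akr1b8 were tested. Of 13 other aldo-keto reductases measured, 0 were called higher and 1, Akr1c14, was called lower in metastasis IgG and in metastasis anti-VEGF. The share called was 7.69% in each comparison, near the 9.01% of all genes for IgG and 6.44% for anti-VEGF. Akr1c14, a hydroxysteroid dehydrogenase gene, read 7.77, 7.80 and 7.52 in metastasis anti-VEGF, 7.51, 7.60 and 7.35 in metastasis IgG, and 8.21, 8.21 and 8.50 in healthy IgG arrays. It fell by 0.82 ± 0.11 with IgG (limma, adjusted p = 0.00321) and by 0.61 ± 0.12 with anti-VEGF (adjusted p = 0.0191), where the call held in 4 of 6 fits with 1 array left out. Akr1b10, the paralog beside Akr1b8, averaged 9.92, 10.03 and 9.99 in metastasis anti-VEGF, metastasis IgG and healthy IgG, a difference of 0.03 ± 0.13 with IgG (adjusted p = 0.912), and 2 further probe sets of Akr1b10 gave 0.00 and -0.15.

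The neighborhood of Akr1b8 on chromosome 6 was looked at after its values were known. Of the 5 nearest protein-coding genes on each side, 8 were measured, and their differences between metastasis IgG and healthy IgG ran from -0.25 for Agbl3 to 0.17 for Chchd3, none of them called. With anti-VEGF they ran from -0.31 for Cald1 to 0.18 for Exoc4, again without a call. Of all genes, 9.01% were called for IgG and 6.44% for anti-VEGF against healthy IgG. At these shares few calls would be expected among 8 genes.

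**Figure D4:**
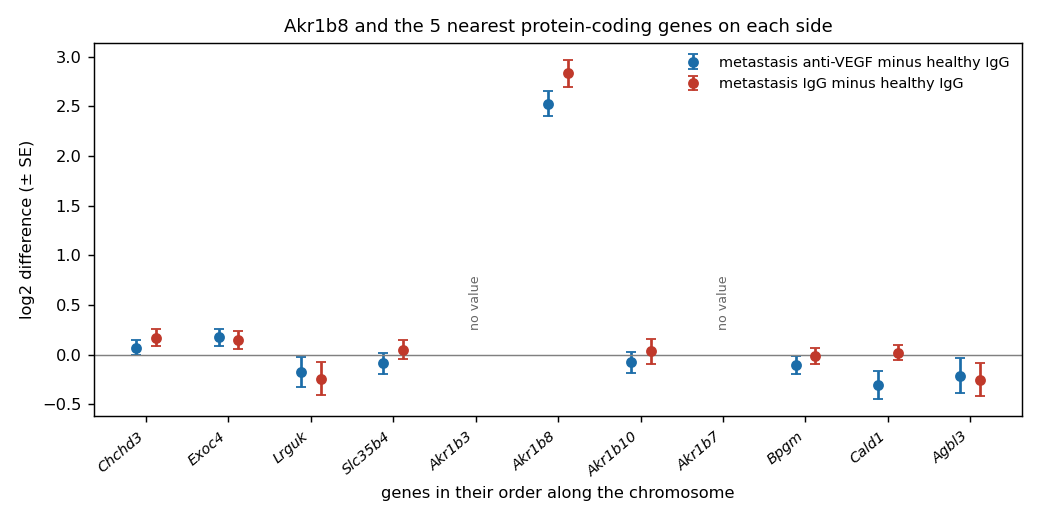
Log2 difference from healthy IgG (± SE) of Akr1b8 and of the 5 nearest protein-coding genes on each side, in their order along chromosome 6, with metastasis anti-VEGF left of metastasis IgG in each pair. Akr1b8 stood at 2.53 and 2.83, the 8 measured neighbors lay between -0.31 and 0.18, and Akr1b3 and Akr1b7 have no value because no probe set named them alone.

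The genes nearest in pattern to Akr1b8 were found by the root mean square difference of 9 array values, each gene centered on its own mean. They were Ildr2 (0.143 log2 units), Ifit2 (0.176), Vwa1 (0.187), Mx1 (0.188) and Tmem26 (0.236). Ifit2 and Mx1 are interferon-stimulated genes, Vwa1 encodes an extracellular matrix protein, and Tmem26 and Ildr2 encode membrane proteins. The same 5 genes were nearest by the largest single difference. Ildr2 averaged 11.61, 11.72 and 9.19 in metastasis anti-VEGF, metastasis IgG and healthy IgG. Of the pathway members the nearest was Keap1, 695th of all genes at 1.06, and the farthest was Gclc, 17662nd at 1.496. These distances include the step between metastatic and healthy arrays by which Akr1b8 was chosen, so they are given as description only. The 5 nearest genes had differences of 2.42 to 3.00 between metastasis IgG and healthy IgG, against 0.46 for Keap1 and -0.41 for Gclc.

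Other enzymes of aldehydes and oxidants were set beside these genes. Of 13 aldehyde and alcohol dehydrogenases, metastasis IgG had 1 called higher and 2 lower, and metastasis anti-VEGF had 0 higher and 2 lower, in each case against healthy IgG. Beside these, 5.55% of all genes were called higher and 3.46% lower for IgG, and 4.15% and 2.29% for anti-VEGF. Aldh1a2, which makes retinoic acid, read 8.17, 7.74 and 8.14 in metastasis anti-VEGF, 8.58, 8.57 and 8.57 in metastasis IgG, and 6.92, 7.72 and 7.31 in healthy IgG arrays. It rose by 1.26 ± 0.17 with IgG (limma, adjusted p = 0.00378), and metastasis anti-VEGF lay below metastasis IgG in every array, by -0.56 ± 0.12, without a call (adjusted p = 0.378). Aldh1a1, another retinaldehyde dehydrogenase gene, fell by 1.21 ± 0.21 with IgG (adjusted p = 0.0117) and by 1.18 ± 0.20 with anti-VEGF (adjusted p = 0.0132), the second call held in 4 of 6 fits with 1 array left out. Adh1, an alcohol dehydrogenase gene, fell by 0.48 with IgG (adjusted p = 0.0279) and by 0.55 with anti-VEGF (adjusted p = 0.0295), each call held in 2 of 6 such fits.

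Of 18 antioxidant enzymes outside the NRF2 lists, such as superoxide dismutases and catalase, only Gpx4, which reduces lipid peroxides, was called. The share called was 5.56% against healthy IgG, beside 9.01% of all genes for IgG and 6.44% for anti-VEGF. Gpx4 fell by 0.35 with IgG (limma, adjusted p = 0.0399) and by 0.34 with anti-VEGF (adjusted p = 0.0485), and both calls were lost in each of 6 fits with 1 array left out. Khk, which phosphorylates fructose at the end of the polyol route that aldose reductase opens, fell by 0.44 ± 0.08 with IgG (adjusted p = 0.0153, held in 4 of 6 such fits) and differed by -0.17 with anti-VEGF (adjusted p = 0.303). For Khk, anti-VEGF against IgG gave 0.27 ± 0.09 without overlap of the arrays and without a call (limma, adjusted p = 0.482).

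The aryl hydrocarbon receptor shares several targets with NRF2, Nqo1 among them. Of its 6 genes measured, 2 were called lower in metastasis IgG and 1 in metastasis anti-VEGF, with no call in the other direction. These shares were 33.3% and 16.7%, beside 3.46% and 2.29% of all genes called lower. Cyp1a1, the receptor's classical target, read 8.56, 8.14 and 8.73 in metastasis anti-VEGF, 7.55, 7.86 and 7.58 in metastasis IgG, and 9.75, 10.47 and 10.07 in healthy IgG arrays. The groups did not overlap, with metastasis anti-VEGF between the other two. Cyp1a1 fell by 2.44 ± 0.17 with IgG (limma, adjusted p = 0.000176) and by 1.62 ± 0.20 with anti-VEGF (adjusted p = 0.00305), and anti-VEGF against IgG gave 0.81 ± 0.16 without a call (adjusted p = 0.352). Ahrr, the repressor of the receptor, fell by 0.59 ± 0.10 with IgG (adjusted p = 0.00897) and differed by -0.33 with anti-VEGF (adjusted p = 0.336). For Ahrr, anti-VEGF against IgG gave 0.26 ± 0.18 without a call (limma, adjusted p = 0.778), and the arrays overlapped.

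Markers of other cells moved between the groups beside these results. Against healthy IgG, metastasis anti-VEGF and metastasis IgG had 5 and 1 of 5 neutrophil markers called higher, 0 and 2 of 15 epithelial markers, 3 and 3 of 9 fibroblast markers and 1 and 2 of 8 pericyte and smooth muscle markers. Of all genes, 4.15% and 5.55% were called higher in these comparisons, and 2.29% and 3.46% lower. Among the neutrophil markers with anti-VEGF, the call held in 6 of 6 fits with 1 array left out for S100a9 and in 5 of 6 for S100a8, but in 2 of 6 for Mmp9 and in 1 of 6 for Csf3r and for Cxcr2. The fibroblast markers called higher in both were Col1a1 (1.33 for anti-VEGF and 1.48 for IgG), Col1a2 (1.24 and 1.44) and Col3a1 (0.99 and 0.98). Inmt was called lower in metastasis anti-VEGF (-1.01, limma, adjusted p = 0.0129) and in metastasis IgG (-1.06, adjusted p = 0.0159), and the other 5 were not called. Pdgfrb, the gene of the CD140b used for exclusion, was called higher with anti-VEGF (1.15, limma, adjusted p = 0.0206) and IgG (1.18, adjusted p = 0.0191). These calls held in 3 of 6 and 4 of 6 fits with 1 array left out. The epithelial markers averaged 8.81 to 9.24 in metastasis anti-VEGF, 8.82 to 9.29 in metastasis IgG and 8.33 to 9.28 in healthy IgG arrays. Of the epithelial markers, Sftpd (1.18, limma, adjusted p = 0.0301) and Sftpb (0.92, adjusted p = 0.0262), genes of surfactant proteins, were the 2 called higher with IgG, and with anti-VEGF they gave 1.00 and 0.80 without a call. Each of the 2 calls held in 1 of 6 fits with 1 array left out. Of the 15 epithelial markers, 5 lay below healthy IgG on average with IgG and 9 with anti-VEGF, with median differences of 0.04 and -0.03. Of 4 erythroid markers, 1 was called higher in each comparison, with 2 lower in metastasis anti-VEGF and 1 in metastasis IgG. The difference between 3′ and 5′ probe sets of beta-actin, a measure of RNA quality, was 0.53 to 0.62 in metastasis anti-VEGF, 0.49 to 0.56 in metastasis IgG and 0.61 to 0.62 in healthy IgG arrays. The part of these differences in the values above was not tested.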

How the data were processed

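Per the study's methods and labels, the authors hybridized RNA of sorted lung ECs to Affymetrix mouse whole-genome expression arrays and normalized them by RMA in Chipster. The deposited values are log2 intensities of 45101 probe sets in 9 arrays, used without further scaling, and the number of arrays limits the precision. The platform annotation named 1 gene for 34945 probe sets. For each of 18193 genes the brightest of its probe sets, on average, was read. For every comparison lmFit and eBayes of limma 3.58.1 (R 4.3.3) were run on the 6 arrays concerned, with Benjamini-Hochberg adjustment over 18193 genes, or over 34945 probe sets for single probe sets, and called at an adjusted p under 0.05. The script was tested on simulated data. SE refers to the difference of 2 means of 3 arrays.

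The members and gene lists were chosen with earlier results of these data known. Genes named were the 10 members, up to 4 called genes of each list, 1 or 2 of smallest p where none was called, and the 5 genes nearest to Akr1b8. Marker lists were given by count, with defining members such as Ptprc and, chosen after their values were seen, members that were called. Marker lists covered endothelial cells, macrophages and monocytes, neutrophils, epithelial cells, fibroblasts, pericytes and smooth muscle, and erythroid cells. Promoter sequences are from RefSeq (GRCm38.p6). Alternatives were a fit of 9 arrays, the replicate block, a limit for dim genes, averaged probe sets per gene, omission of probe sets marked as shared, centered arrays, trend and robust settings, and each array left out. Figures were drawn with matplotlib 3.10.9 and pandas 2.3.3 in Python 3.11.15.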

Additional observations from a re-analysis of the deposited data

How the results depend on the processing

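The difference of Akr1b8 stayed between 2.42 and 2.64 for metastasis anti-VEGF and between 2.72 and 2.97 for metastasis IgG, each against healthy IgG, over 14 alternatives. With averaged probe sets the calls of Keap1 (adjusted p = 0.132 for anti-VEGF and 0.156 for IgG) and Srxn1 (0.208) were lost. Gclc was called for IgG against healthy IgG with trend and robust settings (adjusted p = 0.0445). Deviations from group means correlated at -0.0757 to 0.0138 over 9 pairs of same-numbered arrays and at -0.145 to 0.177 over 18 pairs with different numbers. The main fits therefore did not pair arrays by number, but with 3 arrays per group these values cannot exclude pairing or a shared batch. In fits with the replicate block the adjusted p was 0.0914 for anti-VEGF and 0.0681 for IgG at Keap1, 0.0631 at Gclc and 0.0589 at Srxn1 for anti-VEGF, and calls of Aox1, Adh1, Gpx4, Gsta3 and Akr1c14 were likewise not made in at least 1 comparison. With the replicate block 841 genes were called for anti-VEGF and 1176 for IgG against healthy IgG, in place of 1172 and 1640, and the further NRF2 targets called were 4 and 5 in place of 5 and 6. With 1 array left out the genes called numbered 645 to 1139 for anti-VEGF and 869 to 1478 for IgG, lowest in both without healthy IgG replicate 2, and every omission but that of anti-VEGF replicate 1 or IgG replicate 3 changed the count by over 1.5 times. The further NRF2 targets called for anti-VEGF then numbered 3 to 5, with 3 without healthy IgG replicate 2 or anti-VEGF replicate 2. Trend and robust settings called 1848 genes for anti-VEGF against healthy IgG. Between anti-VEGF and IgG, 0 genes were called by limma in each of these alternatives.

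Differences near 0 changed sign under some settings, and the cause was not tested. For IgG against healthy IgG, Gclm ran from -0.19 to 0.025 with 1 array left out, the highest without metastasis IgG replicate 2, and Txnrd1 was -0.0561 at 1424487_x_at. Between anti-VEGF and IgG, arrays left out gave Nqo1 -0.231 to 0.343, Hmox1 -0.0356 to 0.0942, Txnrd1 -0.137 to 0.0508 and Keap1 -0.0584 to 0.0651. Centering gave Keap1 0.0119, 1439050_at gave Gclm 0.0386, and Txnrd1 was 0.0108 with averaged probe sets and 0.206 at 1424487_x_at. Nfe2l2 under anti-VEGF against healthy IgG was -0.106 with averaged probe sets, -0.0139 with centering, -0.218 at 1457117_at, and -0.0183 to 0.0213 with arrays left out. The planned limit for dim genes of 5 removed 0 genes, so the 4548 genes under 7.51 were left out instead, an alternative chosen after seeing the data.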
